A study of Mus musculus with 6 samples.

Results

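The choroid plexus epithelial genes described here were 9 genes, Ttr, Folr1, Kl, Clic6, Aqp1, Sostdc1, Enpp2, Otx2 and Slc4a5, of the 15441 genes with a value in at least 1 library. They were chosen by their symbols as markers of choroid plexus epithelium, with earlier values of these same libraries known, as a check of which tissue the dissected pieces held. Their levels are therefore given as a description. A gene's value was the largest of its summed transcript starts, its summed transcript ends and any single transcript event in that library, in FPKM (fragment counts scaled by the length of the transcript and the size of the library).

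The choroid plexus is a folded epithelium inside the brain ventricles that secretes most of the cerebrospinal fluid. Its cells move water, sodium, bicarbonate and chloride from blood to ventricle, and they release carrier proteins, enzymes and growth factor regulators into that fluid. The tissue lies in the ventricles below and beside the cortex and is no part of the cortex itself, so its marker genes report on what else was taken with a cortical dissection.

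The study followed gene expression in mouse cortex after photothrombosis, a stroke model in which light activates an injected dye and clots the vessels under the illuminated skull. Male C57/BL6J mice of 6 to 8 weeks received 1 mg of Rose Bengal, and photothrombosis (PT) mice were illuminated for 15 min. RNA of the whole ipsilateral cortex was taken on day 1, 3, 7, 14 or 28 post-stroke. Sham mice had the operation without illumination and were sampled on day 7 post-operation, so a single sham age stood against all 5 post-stroke times. Each of the 6 libraries was made from RNA of 3 mice pooled before sequencing, so there was 1 library per group. No spread between animals could be computed, no test was run, and a difference between libraries is a difference between pools.

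The libraries listed between 83501 (day 14) and 99187 (day 7) transcript events and between 13263 (day 14) and 13987 (day 7) genes. The day 14 library stood apart from the rest. Genes missing from a library although their median over the rest reached 5 FPKM numbered 38 on day 14 and 2 to 7 elsewhere. Its median ratio to sham over all genes was also the farthest from equal, at 0.10 on the log2 scale, against 0.03 or less elsewhere. The cortical label was checked against cortical markers. Of 10 such genes 9 had a value, with a summed level of 272 to 434 FPKM, and Slc17a7, the vesicular glutamate transporter of cortical excitatory neurons, was at 164 to 303 FPKM.

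**Figure D1:**
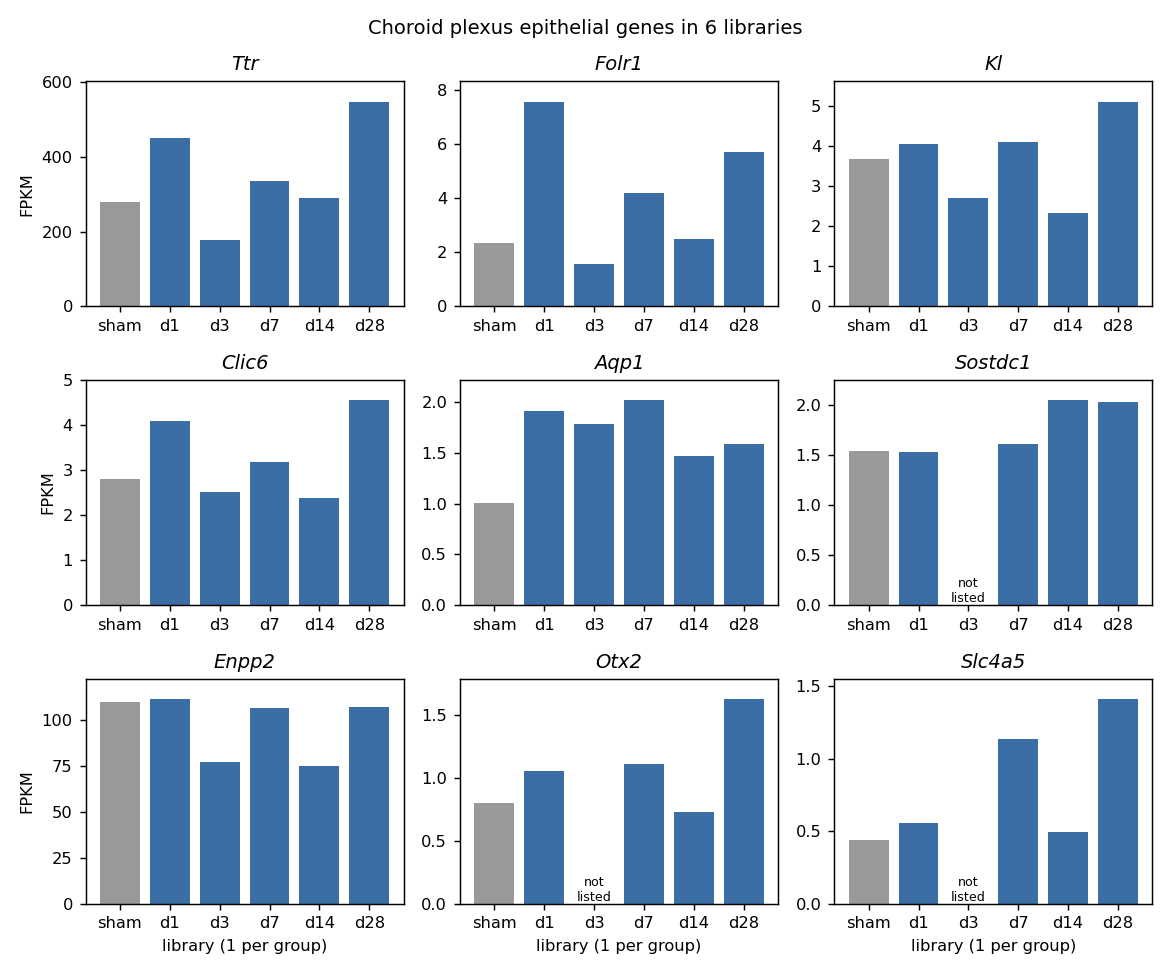
FPKM of each of the 9 choroid plexus epithelial genes (vertical axes, linear, each from 0) in the sham library (grey) and the libraries of day 1 to day 28 post-stroke (blue), 1 pooled library per bar and no error. Ttr, Kl, Clic6, Otx2 and Slc4a5 were highest on day 28, and Sostdc1, Otx2 and Slc4a5 were not listed on day 3.

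All 9 genes were listed in the sham library, which had no stroke. Transcripts of choroid plexus markers were thus present without photothrombosis. Their levels differed by over 2 orders of magnitude between genes, from 0.439 FPKM (Slc4a5) to 279 FPKM (Ttr) in sham. In these whole-tissue libraries, more cells of a type and more RNA per cell cannot be told apart.

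Ttr encodes transthyretin, the carrier of thyroid hormone and retinol-binding protein, and the most abundant secreted product of this epithelium. The gene lies on the plus strand of chromosome 18, from 20665280 to 20674321 (GRCm38). Ttr was at 279 FPKM in sham, 450 on day 1, 177 on day 3, 336 on day 7, 291 on day 14 and 549 on day 28. The day 3 library was the lowest and the day 28 library the highest, 3.10 times apart. Against sham the ratio was 1.61 on day 1, 0.634 on day 3, 1.20 on day 7, 1.04 on day 14 and 1.97 on day 28. Ttr ranked 20th from the top of 13385 genes on day 28, 39th of 13357 on day 1, 81st of 13267 in sham and 166th of 13800 on day 3. A single start and a single end event carried the whole value in each of the 6 libraries, so the Ttr value did not depend on how events were summed.

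Sostdc1 encodes a secreted antagonist of BMP (bone morphogenetic protein) and WNT signals. It was at 1.55 FPKM in sham, 1.54 on day 1, 1.61 on day 7, 2.05 on day 14 and 2.04 on day 28, and was not listed on day 3. The 5 libraries that listed it lay within 1.34 times of each other, the narrowest range of listed values among the 9 genes. That range leaves out day 3. Among members listed in all 6 libraries, Enpp2 had the narrowest range, at 1.49 times. At day 14, 1.08 of the 2.05 FPKM came from a start event of 105 bases that lies 9254 bases upstream of the annotated gene, and the usual start was at 0.971 FPKM.

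Enpp2 encodes autotaxin, the secreted enzyme that makes the signalling lipid lysophosphatidic acid from lysophosphatidylcholine. It is known in oligodendrocytes as well as in choroid plexus epithelium, so it marks the epithelium less sharply than Ttr. Enpp2 was at 110 FPKM in sham, 112 on day 1, 77.3 on day 3, 107 on day 7, 75.0 on day 14 and 107 on day 28. 4 of these libraries sat close together, and those of day 3 and day 14 were lower, with ratios to sham of 0.702 and 0.680. Unlike Ttr, Enpp2 was not higher on day 28 than in sham (ratio 0.972).

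Enpp2 was the member with the most information on transcript forms at a high level. Mouse autotaxin has forms that differ by cassette exons. The alpha form carries the exon of 156 bases, the gamma form, described mainly from brain, carries the exon of 75 bases, and the beta form carries neither. Another exon ends at either of a pair of splice sites, which gives 185 or 173 bases. The exons are printed because the forms changed shares between libraries while total Enpp2 changed less. They lie on the minus strand of chromosome 15 in GRCm38, at chr15:54851348-54851422 (75 bases), chr15:54877776-54877931 (156 bases) and chr15:54862498-54862682 (185 bases). Capitals mark the 12 bases that the short form of the last exon lacks.
Enpp2 exon of 75 bases: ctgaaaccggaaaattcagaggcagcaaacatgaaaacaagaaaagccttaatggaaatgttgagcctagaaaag
Enpp2 exon of 156 bases: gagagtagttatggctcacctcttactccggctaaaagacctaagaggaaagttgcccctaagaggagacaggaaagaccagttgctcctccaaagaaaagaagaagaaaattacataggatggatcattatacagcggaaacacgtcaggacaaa
Enpp2 exon of 185 bases: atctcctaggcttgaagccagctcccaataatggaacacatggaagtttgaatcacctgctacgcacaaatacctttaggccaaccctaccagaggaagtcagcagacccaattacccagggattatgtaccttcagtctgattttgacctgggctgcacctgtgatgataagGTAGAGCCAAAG

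Transcripts that included the exon of 75 bases made up 23.1% of Enpp2 FPKM in sham, 6.04% on day 1, 8.68% on day 3, 22.1% on day 7, 16.3% on day 14 and 16.2% on day 28. In FPKM these were 25.5 in sham, 6.74 on day 1, 6.71 on day 3, 23.6 on day 7, 12.2 on day 14 and 17.4 on day 28. The included form was thus lowest on day 1 and day 3 and close to sham on day 7. At day 1 total Enpp2 was level with sham (112 and 110 FPKM), so there the included form was lower while the skipped form was higher, at 105 FPKM against 84.7. The exon of 156 bases was nearly always skipped. Its included form was listed only in sham (0.00649 FPKM) and on day 28 (0.00724 FPKM).

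The short, 173-base form of the other exon was at 14.2 FPKM in sham, 13.7 on day 7, 6.34 on day 14 and 0.00712 on day 28, and was not listed on day 1 or day 3. As a share of Enpp2 it was 12.9% in sham, 12.8% on day 7, 8.45% on day 14 and 0.00665% on day 28. Both alternative forms were therefore closest to sham on day 7. The day 14 library also listed a start of Enpp2 at 54952548 to 54952683, at 6.34 FPKM, which no other library listed. Which cells carried which form could not be read from whole tissue, and the shares are estimates by the authors' software without an error.

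**Figure D2:**
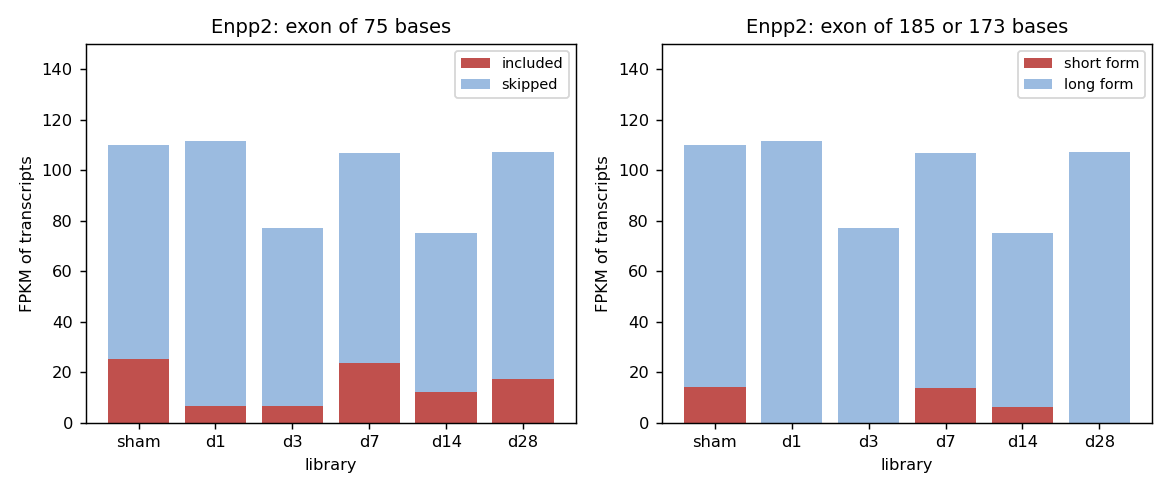
FPKM of Enpp2 transcripts in each of the 6 libraries (1 pooled library per bar), split by the exon of 75 bases (left, included or skipped) and by the exon of 185 or 173 bases (right, long or short form). The included share of the 75-base exon was lowest on day 1 (6.04%), and the short form was absent from the lists of day 1 and day 3.

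The water channel Aqp1 sits in the apical membrane of the epithelium and carries water into the ventricle. It was at 1.01 FPKM in sham, 1.91 on day 1, 1.78 on day 3, 2.02 on day 7, 1.47 on day 14 and 1.59 on day 28. All 5 post-stroke libraries were above sham, with ratios from 1.47 (day 14) to 2.01 (day 7). Counting a gene that was not listed as lowest, Aqp1 was the only member with its lowest library in sham, and it was the only member above sham on day 3. Aqp1 is also made outside the choroid plexus, in some endothelia and in red blood cells. The 4 haemoglobin and haem genes listed summed to 293 FPKM in sham, 247 on day 1, 477 on day 3, 160 on day 7, 460 on day 14 and 193 on day 28, and their part in the Aqp1 level was not tested.

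Slc4a5 encodes a sodium bicarbonate cotransporter of the apical membrane. It was at 0.439 FPKM in sham, 0.555 on day 1, 1.14 on day 7, 0.497 on day 14 and 1.41 on day 28, and was not listed on day 3. The libraries of day 7 and day 28 were the high ones, 2.60 and 3.22 times sham. These ratios compared different events. The sham value was a single exon inclusion event with no start or end listed, while the values of day 7 and day 28 were sums of 3 and 2 start events. The same exon (chromosome 6, 83285823 to 83285936) was at 0.439 FPKM in sham, 0.771 on day 7 and 0.610 on day 28, which gave ratios of 1.76 and 1.39.

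Clic6, a member of the chloride intracellular channel family, was at 2.81 FPKM in sham, 4.09 on day 1, 2.51 on day 3, 3.17 on day 7, 2.38 on day 14 and 4.55 on day 28. Day 28 and day 1 were the high libraries, as for Ttr. The lists of day 14 held a second form of Clic6 that skipped an exon of 182 bases, at 0.996 FPKM beside 1.38 FPKM of the form that included it. No other library listed the skipping form.

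Folr1 encodes the folate receptor by which the epithelium moves folate from blood to cerebrospinal fluid. It was at 2.34 FPKM in sham, 7.56 on day 1, 1.55 on day 3, 4.17 on day 7, 2.47 on day 14 and 5.69 on day 28. Day 1 was the highest library and day 3 the lowest, 4.89 times apart, the widest range among members listed in all 6 libraries. The ratio to sham was 3.23 on day 1 and 2.43 on day 28. The size of these ratios depended on which end of the gene was read. The single end event was at 1.45 FPKM in sham, 1.95 on day 1, 1.23 on day 3, 1.99 on day 7, 2.47 on day 14 and 1.01 on day 28, so by ends the day 28 library was below sham. The main start (chromosome 7, 101869157 to 101869551) was at 0.647 FPKM in sham and 7.56 FPKM on day 1. The sham value also held another start at 1.04 FPKM and a start of 32 bases at 0.650 FPKM that lies 11845 bases upstream, within Anapc15 on the opposite strand.

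Kl encodes klotho, a membrane protein that acts as a coreceptor for FGF23 and whose shed part reaches the cerebrospinal fluid. It was at 3.69 FPKM in sham, 4.05 on day 1, 2.70 on day 3, 4.10 on day 7, 2.33 on day 14 and 5.12 on day 28. Day 14 and day 3 were low and day 28 high, at 1.39 times sham. The start and end sums of Kl differed by little in the 5 libraries that listed both, and day 14 listed an end event only.

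Otx2, a homeodomain transcription factor needed to form and maintain the choroid plexus, was at 0.797 FPKM in sham, 1.05 on day 1, 1.11 on day 7, 0.725 on day 14 and 1.62 on day 28, and was not listed on day 3. Day 28 was 2.04 times sham in FPKM, and 0.94 on the log2 scale once 0.1 was added to both values. Otx2 showed more than 1 start. The starts farthest upstream gave 51.2% of the summed start FPKM in sham, 36.5% on day 1, 17.0% on day 7 and 87.6% on day 28, and none on day 14, whose single start was the most downstream. These shares rest on values below 1 FPKM for each start.

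The 4 Otx2 promoter windows of RefSeq are shown because the start in use differed between libraries. They are on the minus strand of GRCm38.p6, 250 bases before to 50 after the RefSeq start, at chr14:48667595-48667894 (first), chr14:48667459-48667758 (second, overlapping the first), chr14:48665060-48665359 (middle) and chr14:48662685-48662984 (downstream). The first and second RefSeq starts match listed starts to the base, and the first of them carried 0.339 of the 0.408 FPKM of upstream starts in sham. The listed starts nearest the middle and downstream windows begin 137 and 138 bases upstream of the RefSeq starts. Capitals mark the letters GGATTA, which read TAATCC on the other strand and are the core letters that OTX proteins bind.
Otx2 first start: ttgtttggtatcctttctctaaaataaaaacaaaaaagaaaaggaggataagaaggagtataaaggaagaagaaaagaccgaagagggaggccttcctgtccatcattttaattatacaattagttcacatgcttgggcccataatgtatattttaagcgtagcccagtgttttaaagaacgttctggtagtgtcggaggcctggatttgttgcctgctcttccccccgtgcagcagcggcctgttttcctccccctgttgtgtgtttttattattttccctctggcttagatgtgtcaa
Otx2 second start: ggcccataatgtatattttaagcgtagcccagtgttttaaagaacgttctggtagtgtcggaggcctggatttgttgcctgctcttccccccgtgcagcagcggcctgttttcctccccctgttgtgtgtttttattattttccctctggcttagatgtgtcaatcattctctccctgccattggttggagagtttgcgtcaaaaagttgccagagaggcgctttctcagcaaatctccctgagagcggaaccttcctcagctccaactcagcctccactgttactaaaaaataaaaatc
Otx2 middle start: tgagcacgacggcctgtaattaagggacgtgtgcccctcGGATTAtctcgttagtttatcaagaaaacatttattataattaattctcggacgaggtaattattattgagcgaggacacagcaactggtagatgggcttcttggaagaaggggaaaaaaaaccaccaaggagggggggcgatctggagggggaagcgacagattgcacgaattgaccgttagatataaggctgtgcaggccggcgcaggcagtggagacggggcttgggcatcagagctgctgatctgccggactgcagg
Otx2 downstream start: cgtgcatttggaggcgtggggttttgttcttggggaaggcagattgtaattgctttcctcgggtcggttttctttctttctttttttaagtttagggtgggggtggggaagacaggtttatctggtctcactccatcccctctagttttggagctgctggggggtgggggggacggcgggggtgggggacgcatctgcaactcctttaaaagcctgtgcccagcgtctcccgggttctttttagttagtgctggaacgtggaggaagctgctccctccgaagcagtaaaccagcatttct

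Both strands of the windows of Kl, Aqp1, Slc4a5 and Otx2, the 4 members matched in the RefSeq promoter table, were searched for those letters. Only the middle Otx2 window held them, with the first base at -211 from the RefSeq start, and 7.06% of 32851 promoter windows of the same length did. A match of letters is a description and shows no binding. The listed start nearest the middle window was at 0.212 FPKM on day 1 and 0.265 FPKM on day 7, and was in no other library's list.

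Set against sham, members were compared by log2((FPKM + 0.1)/(sham FPKM + 0.1)) where either library reached 1 FPKM, and called higher or lower at a ratio of 2-fold. At day 1, 1 member (Folr1, 1.65) was called higher and none lower, of 8 that passed the filter. Over all 11790 genes compared on day 1, 5.11% were higher and 4.48% lower. At day 3 none was called higher and 1 lower, Sostdc1, through not being listed, where 8.54% of all genes were higher and 2.53% lower. At day 7, 1 member was called higher (Slc4a5, 1.20) and none lower, where 8.53% of all genes were higher and 2.12% lower. At day 14 no member passed in either direction, where 8.97% were higher and 6.92% lower. At day 28, 2 members were called higher (Folr1, 1.25, and Slc4a5, 1.49) and none lower, where 3.68% of all genes were higher and 2.79% lower. Slc4a5 and Otx2 were below 1 FPKM in sham (0.439 and 0.797). They passed the filter only where the post-stroke library reached 1 FPKM, so neither could be called lower. By the same exon in both libraries, Slc4a5 was 1.76 times sham on day 7 and 1.39 times on day 28. By its end event, Folr1 was 0.698 times sham on day 28. With 9 genes these counts were too small to set apart from those percentages.

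Among members listed in both libraries, 8 of 9 were above sham on day 1, 1 of 6 on day 3, 8 of 9 on day 7, 5 of 9 on day 14 and 8 of 9 on day 28. Of all genes that passed the filter, 51.5%, 53.4%, 53.8%, 57.4% and 53.8% were above sham on those days. The members' share on day 14 was near that of all genes. These sets are unlike, since the member counts needed listing in both libraries and used no filter. The genes that passed the filter include some listed in only 1 of the libraries compared. The members' median log2 ratio was 0.36 on day 1, -0.47 on day 3, 0.27 on day 7, 0.06 on day 14 and 0.68 on day 28. Over all genes that passed the filter the medians were 0.01, 0.03, 0.03, 0.10 and 0.03 in the same order. The members below sham on day 1, day 7 and day 28 were Sostdc1 on day 1 and Enpp2 on day 7 and day 28, at -0.01, -0.04 and -0.04. Ttr on day 28 (0.98), Aqp1 on day 7 (0.94) and Otx2 on day 28 (0.94) lay just under the 2-fold threshold.

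**Figure D3:**
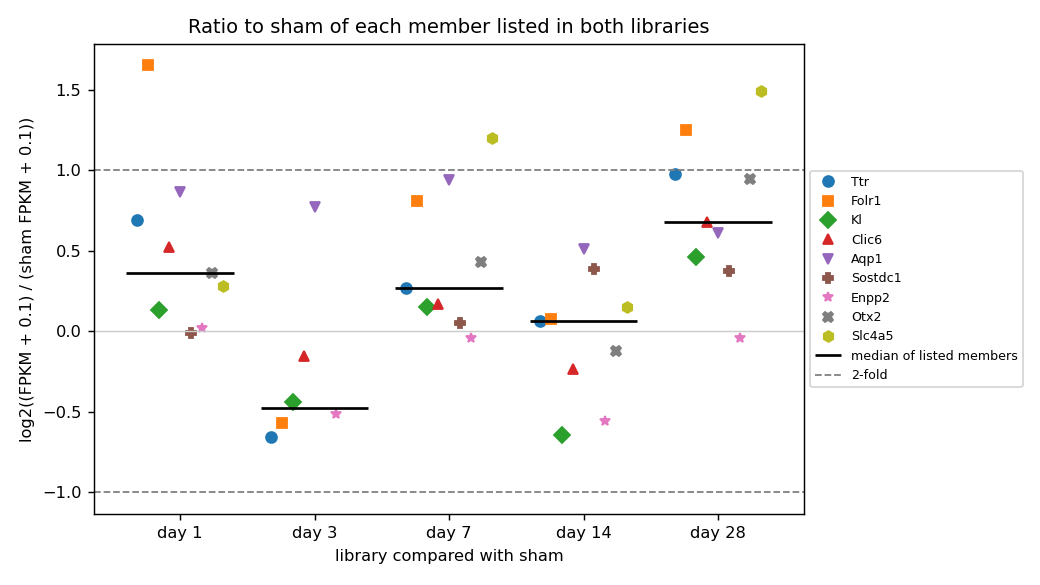
Log2 ratio to sham (vertical axis, 0.1 FPKM added to both values) of each member listed in both libraries, for the 5 post-stroke libraries, 1 pooled library each. Black lines are the medians of the members shown, from -0.47 on day 3 to 0.68 on day 28, and dashed lines mark a 2-fold difference.

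Counting a gene that was not listed as the lowest, 5 of 9 members had their lowest library on day 3, 3 on day 14 and 1 in sham. Of 9 members 5 were highest on day 28, 2 on day 1, 1 on day 7 and 1 on day 14. Among the 6 members listed in every library, 3 were highest on day 28 and 2 were lowest on day 3. Of 11565 genes with the same listing and at least 1 FPKM, 13.9% were highest on day 28, 17% were lowest on day 3 and 2.25% were both. Ttr was the only member of those 6 that was both. Over the 15 pairs of these 6 members, Pearson's r of log2 values across the 6 libraries had a median of 0.745 and ran from -0.0617 to 0.928. The points of each pair share a library and its scaling, and Aqp1 was the member with the low values.

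Relative to Ttr in the same library, the 5 other members listed in every library spread from 1.74 times (Clic6) to 3.48 times (Aqp1) between the lowest and highest ratio. Over the 5 libraries without day 3, which all 8 could be compared on, the spread ran from 1.23 times (Clic6) and 1.41 times (Otx2) to 2.75 times (Slc4a5). Per 1000 FPKM of Ttr, Clic6 was at 10.1 in sham, 9.08 on day 1, 14.2 on day 3, 9.45 on day 7, 8.17 on day 14 and 8.29 on day 28. Enpp2 was at 395 in sham, 248 on day 1, 437 on day 3, 319 on day 7, 258 on day 14 and 195 on day 28, so it changed less than Ttr did and its ratio was highest where Ttr was lowest. Kl, Clic6, Aqp1 and Enpp2 all had their highest ratio to Ttr on day 3. Ttr, the shared divisor, was itself lowest on day 3, and a low Ttr value alone raises all of these ratios there.

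**Figure D4:**
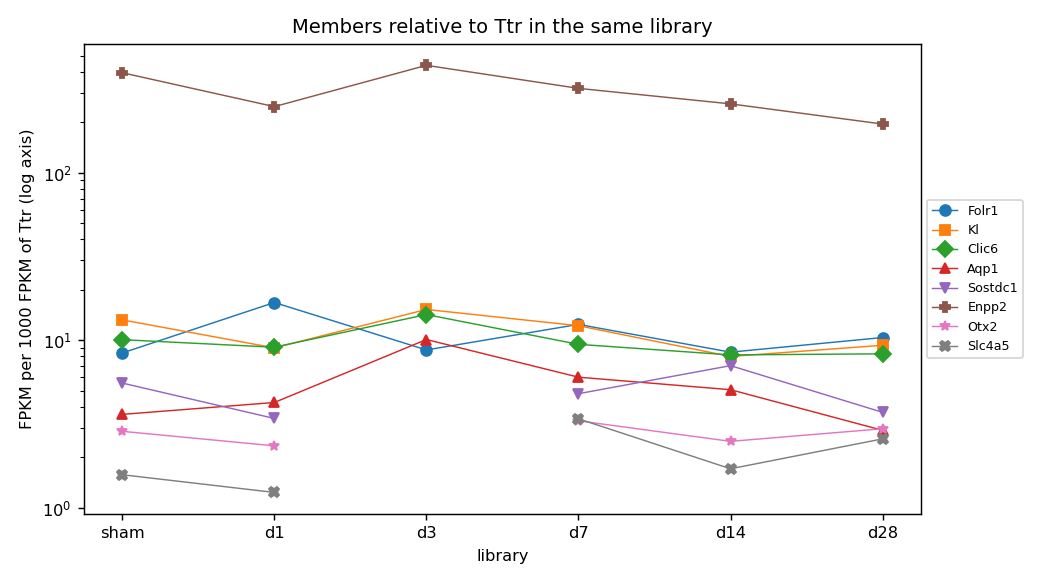
FPKM of the other 8 members per 1000 FPKM of Ttr in the same library (vertical log axis), for the 6 libraries, 1 point per pooled library. Among members listed in every library Clic6 varied least (1.74 times) and Aqp1 most (3.48 times), and gaps on day 3 are genes that were not listed.

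A wider list of 32 choroid plexus genes, of which 25 had a value, moved only in part with the 9 members. Its genes past 2-fold and higher than sham numbered 3 of 17 on day 1, 2 of 14 on day 3, 2 of 16 on day 7, 2 of 14 on day 14 and 3 of 17 on day 28, and none was lower. Of all genes 5.11%, 8.54%, 8.53%, 8.97% and 3.68% were higher on those days. The median log2 ratios of the wider list were 0.41, 0.03, 0.28, 0.19 and 0.18 in that order, so its median was not low on day 3 as the members' median was. Single genes of the list lay on both sides of sham on day 3. F5, coagulation factor V, was at 0.401 FPKM in sham, 1.13 on day 1, 0.957 on day 3, 1.29 on day 7, 0.531 on day 14 and 1.59 on day 28. Cldn2, a tight junction protein of leaky epithelia, was at 0.457 FPKM in sham, 1.02 on day 1, 0.626 on day 3, 0.808 on day 7, 0.328 on day 14 and 1.29 on day 28. Both were highest on day 28, as Ttr was. Both were also below 1 FPKM in sham, so they passed the filter only where the post-stroke library reached 1 FPKM. Of the 25 genes of the list, 7 were highest on day 28, 5 on day 1, 3 on day 3, 4 on day 7, 5 on day 14 and 1 in sham. Lbp, the lipopolysaccharide binding protein, had another order, with 1.94 FPKM in sham and 5.37, 4.87, 4.03, 5.47 and 2.75 FPKM from day 1 to day 28. Wfdc2 was not listed in sham and lay between 0.540 and 0.863 FPKM after it.

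Of 63 genes with a value in lists of the members' pathways, those past 2-fold were 1 higher and 4 lower of 54 on day 1, 3 and 1 of 55 on day 3, 3 and 0 of 54 on day 7, 5 and 3 of 54 on day 14, and 1 and 2 of 53 on day 28. As shares these were 1.85% and 7.41%, 5.45% and 1.82%, 5.56% and 0, 9.26% and 5.56%, and 1.89% and 3.77%, to be read beside the shares of all genes given above. Of 18 genes of ion and water transport, 0 to 1 were past the threshold in each direction at each time. Clic1, another chloride intracellular channel protein, was at 6.05 FPKM in sham and 9.43, 19.1, 23.0, 13.6 and 6.99 FPKM from day 1 to day 28, an order unlike that of Clic6. No thyroid hormone or retinol carrier gene was past 2-fold except Thrb, a thyroid hormone receptor, which was lower on day 1 (2.71 against 6.57 FPKM). Of the lysophosphatidic acid receptors and phosphatases, only Plpp2 was past it, lower on day 28 (0.655 against 1.65 FPKM). None of the 4 klotho partners with a value was past 2-fold at any time. Among folate genes Slc19a1, the reduced folate carrier, was lower on day 3 (1.60 against 5.01 FPKM), Fpgs was higher on day 14 (2.01 against 0.884 FPKM) and Shmt2 lower on day 28 (2.32 against 5.35 FPKM). Of 11 BMP and WNT genes with a value, 3 were lower on day 1, among them Bmp2 at 0.369 against 1.03 FPKM. Lrp5, a WNT coreceptor, was higher on day 3 (3.65 FPKM), day 7 (3.43) and day 14 (2.99) than in sham (1.43), and Bmpr1a, a BMP receptor, was lower on day 14 (1.20 against 4.85 FPKM). Of 6 choroid plexus transcription factors with a value, 1, 1, 1, 2 and 0 were higher from day 1 to day 28, and Rfx3 was lower on day 14 through not being listed.

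Genes of tissue that lies next to the choroid plexus gave a further check of the dissection. The ependyma, the ciliated lining of the ventricles, was represented by 12 genes that summed to 18.9 FPKM in sham, 21.5 on day 1, 28.9 on day 3, 30.0 on day 7, 46.0 on day 14 and 25.2 on day 28. Its genes called higher numbered 0 of 8 that passed the filter on day 1, 2 of 9 on day 3 and 1 of 9 on day 7. They numbered 7 of 11 on day 14 and 1 of 8 on day 28, where 1 was lower. Of all genes 5.11%, 8.54%, 8.53%, 8.97% and 3.68% were higher from day 1 to day 28, and 2.79% were lower on day 28. Ependymal genes below 1 FPKM in sham, among them Cfap126, Fam183b and Pifo, could pass the filter only through the post-stroke library. Of the 12 ependymal genes 9 were highest on day 14, 2 on day 7 and 1 on day 28. The members ranged on day 14 from 0.631 (Kl) to 1.47 (Aqp1) times sham. Foxj1, the regulator of motile cilia, was at 2.56 FPKM in sham and 5.73 on day 14.

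Hypothalamic neuropeptide genes, of which 9 of 12 had a value, summed to 9.99 FPKM in sham, 72.2 on day 1, 18.8 on day 3, 50.6 on day 7, 39.7 on day 14 and 15.5 on day 28. Avp (vasopressin) was not listed in sham and was at 18.9 FPKM on day 1, 4.24 on day 3, 18.1 on day 7, 11.7 on day 14 and 3.01 on day 28. Oxt (oxytocin), Pmch (melanin-concentrating hormone), Pomc and Gal were also not listed in sham. Pmch was at 26.2 FPKM on day 1 and not listed on day 28, where Ttr was highest. The hypothalamic genes called higher numbered 6 of 7 that passed the filter on day 1, 2 of 4 on day 3 and 5 of 7 on day 7. They numbered 4 of 6 on day 14 and 2 of 4 on day 28. Of all genes 5.11%, 8.54%, 8.53%, 8.97% and 3.68% were higher on those days. Only 2 hypothalamic genes were listed both in sham and in each library compared with it. Most of these calls came from genes not listed in sham, which counted as 0.

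Striatal genes, 7 of 10 with a value, summed to between 374 FPKM (day 3) and 558 FPKM (day 14), and none was past 2-fold at any time. Ppp1r1b, which marks striatal projection neurons, was at 217 FPKM in sham, 246 on day 1, 152 on day 3, 134 on day 7, 243 on day 14 and 288 on day 28. Of the 7 striatal genes, 4 were highest on day 14 and 3 on day 28. The 9 oligodendrocyte genes summed to 1736 to 2441 FPKM, lowest on day 28, where Enpp2 was level with sham. Marker genes of tissue other than cortex were thus listed in each library, and the libraries with the highest sums differed between regions. The part of these regions in the levels of the 9 members was not tested, and dissection and time after stroke cannot be told apart with 1 pool per time.

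**Figure D5:**
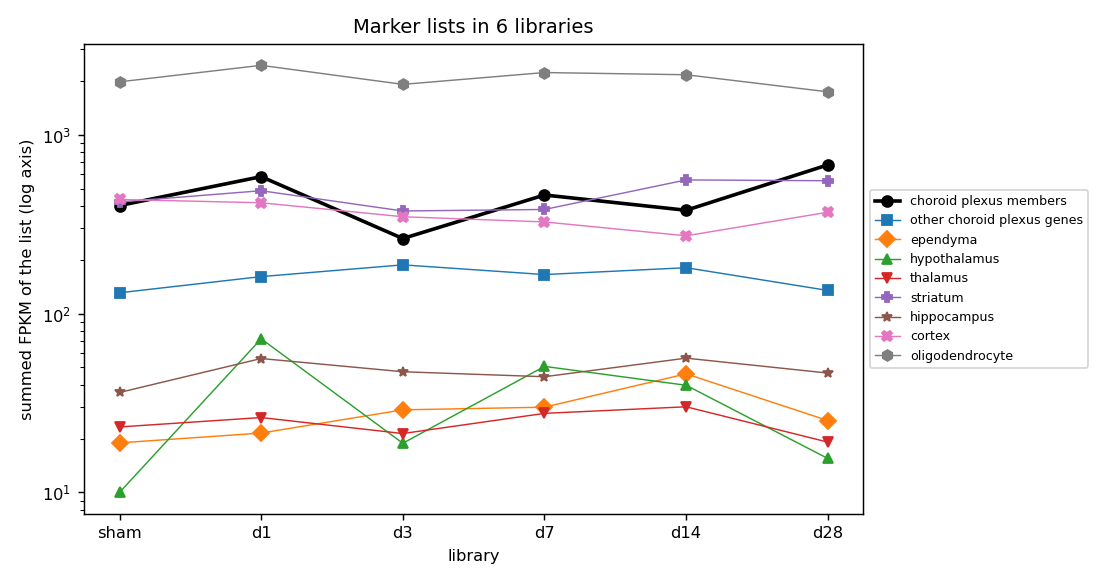
Summed FPKM (vertical log axis) of the 9 members (black) and of 8 other marker lists in the 6 libraries, 1 point per pooled library. The sum of the members was lowest on day 3 (263 FPKM, of which Ttr was 177) and highest on day 28 (678 FPKM, of which Ttr was 549). The black line thus follows mainly Ttr, and by gene 5 of 9 members were highest on day 28. The hypothalamic list was highest on day 1 (72.2 FPKM) and the ependymal list on day 14 (46.0 FPKM).

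Among 3585 genes listed in all 6 libraries that reached 1 FPKM and spanned at least 2-fold, the 10 most like the members were found by Pearson's r with the members' mean log2 value over the 6 libraries, a gene not listed counting as 0. They were Txnl4a (r = 0.967), Zfp647, Nfya, Wdr73, Tprn, Ebag9, Desi2, Pex13, Nipa2 and Utp15 (r = 0.920). Txnl4a was at 8.10 FPKM in sham and 30.6, 2.58, 27.9, 11.6 and 29.5 FPKM from day 1 to day 28. All 10 were lowest on day 3, where 3 members counted as 0. With the mean of the 6 members listed in every library, only 2 of these 10 genes stayed among the most alike. Of the wider choroid plexus list, Kcne2, a potassium channel subunit, had the highest r (0.784), which ranked 85th of the 3585 genes. The oligodendrocyte gene Mag (0.863) and the folate carrier Slc19a1 (0.835) ranked above it, and Igfbp2 (-0.819) and Trpv4 (-0.691) of the wider list went the other way.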

How the data were processed

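RNA of the whole ipsilateral cortex (RIN above 8, 3 mice pooled per library) was sequenced by the authors as strand-specific poly(A) libraries, paired-end 150 bases, at a mean of 33.6 M reads; the depth of each library is not known here. The submitters' processing notes name Trimmomatic 0.30, HISAT2 2.0.1, HTSeq 0.6.1 and the build mm10, with no role. The deposited files hold the authors' FPKM values per transcript event (start, end, exon inclusion or skipping, alternative exon end), not per gene, and the software that made them is not given in the sources used here. Raw counts were not used here, so no interval or count test was possible.

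Identical repeated rows were dropped and events without a gene identifier left out. A gene's value in a library was the largest of its summed starts, its summed ends and any single event; 15411 of 15441 genes matched GENCODE M21 (GRCm38), which gave names and positions. A gene absent from a library's file is called not listed, counted as 0 in calls and sums, and given no ratio. Ratios to sham used a pseudocount of 0.1 FPKM, a minimum of 1 FPKM in 1 of the 2 libraries and a threshold of 2-fold (1 on the log2 scale). A gene below 1 FPKM in sham passed only where the post-stroke library reached 1 FPKM, and could then not be called lower. The same script was tested on simulated data. Samples were grouped by their labels.

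All 9 members are named. From other lists the text draws on genes listed in at least 5 libraries with the 4 largest ranges of log2(FPKM + 0.1), and on genes past 2-fold in 2 or more libraries. Igfbp2 and Trpv4 of the wider list fall outside that rule and were named by their r with the members' mean. The 10 genes most like the members followed a rule given with their values. The members and lists were chosen with earlier results of these data known. The folate, ion transport and other pathway lists overlap the wider choroid plexus list in a few genes.

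Alternatives changed the threshold, the pseudocount, which events were summed, the scaling, the filter and the use of genes listed in both libraries. Analyses used Python 3.11.15, numpy 2.4.6, pandas 2.3.3 and matplotlib 3.10.9.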

Additional observations from a re-analysis of the deposited data

How the results depend on the processing

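Of the 5 calls on members, 3 were left with a pseudocount of 1, 2 with a minimum of 5 FPKM, 1 at a 4-fold threshold and 1 by summed ends. Members higher on day 1 numbered 0 at 4-fold and 0 by summed ends. Of all genes, 602 of 11790 were higher on day 1 in the main setting. At 4-fold it was 210 of 11790, and by summed ends 681 of 9178. At day 7 the members higher numbered 0 under each of the 4 settings named first and 2 with events inside the annotated gene. All genes higher on day 7 numbered 1030 of 12069 in the main setting and 659 of 12069 with a pseudocount of 1. With a minimum of 5 FPKM it was 361 of 8083, and at 4-fold 418 of 12069. By summed ends it was 984 of 9375, and with events inside the annotated gene 1011 of 11785. At day 28 the members higher numbered 1 with a pseudocount of 1, 1 with a minimum of 5 FPKM, 0 at 4-fold and 0 by summed ends. All genes higher on day 28 numbered 432 of 11751 in the main setting and 241 of 11751 with a pseudocount of 1. With a minimum of 5 FPKM it was 140 of 7897, at 4-fold 142 of 11751 and by summed ends 503 of 9121. Members lower on day 3 numbered 3 with no filter, 0 with a minimum of 5 FPKM and 0 with genes listed in both libraries, and 1 was lower on day 14 by summed starts (Kl, which has no start event there). All genes lower on day 3 numbered 305 of 12052 in the main setting and 743 of 14297 with no filter. With a minimum of 5 FPKM it was 118 of 8070, and with genes listed in both libraries 248 of 11810. All genes lower on day 14 numbered 834 of 12045 in the main setting and 1911 of 11277 by summed starts. Folr1 on day 28 turned to -0.48 on the log2 scale by summed ends. The wider choroid plexus list had 12 calls over the 5 times, and 3 with a pseudocount of 1, 26 with no filter, 4 with a minimum of 5 FPKM and 0 at 4-fold. The neighbouring-tissue lists had 61, and 24 with a minimum of 5 FPKM, 29 at 4-fold and 36 with genes listed in both libraries. The pathway lists had 23, and 8, 39, 7 and 2 under the same settings as the wider list. These list totals run over the 5 times and have no such count over all genes beside them. Of the 10 most alike genes, 4 remained by Spearman correlation, 6 with a pseudocount of 1, 2 without the day 14 library and 2 with the 6 fully listed members, the last 2 settings being chosen after seeing the data. Except where a setting itself removes values, the cause of these changes was not tested.

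No paired analysis was possible because each group has 1 library. FPKM carry no depth, so low values such as those of Otx2 and Slc4a5 have no error.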

Other observations

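Hippocampal and meningeal genes were listed too. Of the hippocampal genes that passed the filter, 0 of 5 were higher on day 1, 3 of 6 on day 3 and 1 of 5 on day 7. On day 14 it was 2 of 5 and on day 28 1 of 5, and none was lower. Of all genes 5.11%, 8.54%, 8.53%, 8.97% and 3.68% were higher on those days. Prox1 and Lct were not listed in sham and counted as 0 there, so where they passed the filter they could only be called higher. Prox1 was called on day 3 and day 7, and Lct on day 3 and day 14. C1ql2, Dsp and Wfs1 of the hippocampal list were past 2-fold at no time. Prox1, a transcription factor of dentate granule cells, was not listed in sham or on day 28, and was at 0.765 FPKM on day 1, 4.24 on day 3, 1.21 on day 7 and 0.427 on day 14. Spink8, a marker of CA1 neurons, was at 1.55 FPKM in sham, 3.16 on day 1, 3.51 on day 3, 2.57 on day 7, 6.08 on day 14 and 3.48 on day 28, above sham in all 5 post-stroke libraries. Of 9 leptomeningeal genes, 1, 3, 2, 3 and 1 were called higher from day 1 to day 28. On day 1 another was lower, as were 4.48% of all genes. Slc47a1, a transporter of the leptomeninges, was at 1.20 FPKM in sham, 2.61 on day 1, 4.15 on day 3, 2.66 on day 7, 4.12 on day 14 and 2.83 on day 28. Lum, which encodes the matrix protein lumican, was at 1.37 FPKM in sham and highest on day 14, at 6.87 FPKM. Ptgds, which is made by both leptomeninges and choroid plexus, was lowest on day 3 (711 FPKM), as Ttr was, and highest on day 14 (1969 FPKM), unlike Ttr. Mag, a myelin glycoprotein, was at 33.8 FPKM in sham, 62.6 on day 1, 26.8 on day 3, 69.0 on day 7, 45.9 on day 14 and 54.0 on day 28.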
